A study of Mus musculus with 6 samples.

Results

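Astrocytes of the mouse cerebral cortex at postnatal day 12 (P12) were read from a pair of single-cell libraries, one of Nodal lox/lox control mice and one of Nodal iPCKO mice. A barcode was taken as an astrocyte when it held at least 1500 unique molecular identifiers (UMIs, each standing for 1 captured transcript), at most 17% mitochondrial UMIs, at least 1 UMI of at least 4 of Aqp4, Slc1a2, Slc1a3, Gjb6, Aldoc, Mlc1, Chrdl1 and Dio2, and at most 1 UMI in total over Cldn5, P2ry12, Kcnj8, Col1a2, Mki67 and Top2a. These limits gave 537 of 3015 barcodes past the UMI and mitochondrial limits in the control library and 524 of 4750 in the iPCKO library, 1061 of 7765 in all. The rule read measured values of the same cells, so the levels of its 14 genes are given as a description.

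The study asked how growth factors from pericytes act on neighbouring cells. Both genotypes carried Nodal alleles flanked by loxP sites and both had received 50 µg tamoxifen on each day from P1 to P3, while only the iPCKO mice carried the Pdgfrb(BAC)-CreERT2 transgene, which is active in pericytes and other mural cells. Each library pooled cortical cells of a pair of mice, whose sex the labels do not give, taken after removal of the meninges and of myelin debris and captured on the BD Rhapsody platform. With 1 library a genotype there is no replicate and no test. Every interval below is an exact 95% interval that covers counting error alone. An effect of the transgene itself cannot be told apart from one of Nodal loss. The cortices of a genotype were pooled before dissociation, so effects of dissociation or capture cannot be told apart from those of genotype either.

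Astrocytes are the glia that take up glutamate and potassium at synapses, couple to each other through gap junctions and cover brain vessels with endfeet rich in the water channel Aqp4. In the cortex at this age they still mature and spread their processes. After injury or stress they can become reactive, a state classically marked by the filament protein Gfap, whereas immediate-early genes such as Fos, Jun and Egr1, which code for transcription factors, are transcribed within minutes of many stimuli, cell dissociation among them.

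The astrocytes held 5754440 UMIs in control and 5628762 in iPCKO, with a median of 10350 UMIs and 3883 genes per control cell and of 10856 UMIs and 4004.5 genes per iPCKO cell. Their share of the barcodes was 17.8% (16.5 to 19.2%) in control and 11.03% (10.2 to 11.96%) in iPCKO, a share that also depends on how many cells of every other type were recovered. The median mitochondrial share was 10.1% in control and 8.76% in iPCKO. A further 153 control and 289 iPCKO barcodes had enough astrocyte markers and were kept out by the exclusion genes. No member barcode occurred in both libraries.

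The targeted gene checked the labels outside the astrocytes. Nodal, a ligand of the TGF-beta family at chr10:61253587-61261117 of GRCm39, had 39 UMIs (194.6 counts per 1000000 UMIs, CPM) in 48 control barcodes that met the same kind of rule for mural markers and 0 UMIs in 42 such iPCKO barcodes. In the astrocytes it had 0 UMIs in control, which allows up to 0.641 CPM, and 1 UMI in iPCKO.

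The rule requires at least 4 of its 8 markers in every member, so their counts describe the selection. All 8 markers were found in 347 control and 386 iPCKO cells, and 7 of them in 153 and 89 cells. The 6 control and 15 iPCKO members with exactly 4 markers had pooled Slc1a3 levels of 1826 and 688 CPM, against 75.5 and 60.0 CPM in the 15 and 38 barcodes with 3 markers, which stood just outside. The levels at 4 markers were far below those of all members (8729 and 9884 CPM), and 5 of those 15 iPCKO cells and 1 of those 6 control cells carried strong markers of other types, given in the next paragraph. Slc1a2, the main glutamate transporter of the forebrain, had the highest level of all genes outside the mitochondrial and ribosomal ones in control, at 11195 CPM in control and 12829 CPM in iPCKO. Of genes that the rule did not read, Glul, the glutamine synthetase that converts the glutamate taken up, had 9631 and 10173 CPM. The sodium pump subunit Atp1b2, the lipid phosphatase Plpp3, the secreted Sparcl1, Apoe and Ptn and the receptor phosphatase Ptprz1 were also among the 15 highest such genes in control, leaving aside predicted genes known only by a number.

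Some barcodes inside the rule carried strong markers of other brain cells. Over the neuron, oligodendrocyte and oligodendrocyte precursor (OPC) lists, without Cnp and genes that astrocytes also express, 4 control and 7 iPCKO cells had more than 10 UMIs. In control a cell of 34874 UMIs held 2670 oligodendrocyte marker UMIs and 1 UMI of Slc1a3, and a cell of 39974 UMIs held 265 neuronal ones. In iPCKO a cell of 61105 UMIs held 1121 neuronal marker UMIs and none of Slc1a3, and 3 cells held 62 to 104 OPC marker UMIs. These 11 cells made up 1.64% of the control and 2.05% of the iPCKO UMIs, and results that rest on them are given with and without them. Of the other marker lists, microglial markers summed to 95.1 and 89.4 CPM and endothelial ones to 74.0 and 67.6 CPM in control and iPCKO. Mural ones summed to 214.7 and 258 CPM, of which Pdgfrb made up 30.2 and 95.9 CPM. Fibroblast ones summed to 18.0 and 30.6 CPM, and to 18.2 and 9.88 CPM without the 11 cells. Ependymal and choroid ones summed to 41.9 and 39.3 CPM and blood ones to 10.1 and 9.06 CPM. The part of cells of other types in the differences below was not tested, except where values without the 11 cells are given.

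Across all genes the astrocytes of both libraries were close to each other. Of 10080 genes with at least 100 UMIs in the members together, the median log2 ratio of iPCKO over control CPM was 0.02 and the 5th and 95th percentiles lay at -0.44 and 0.49. At least 2-fold higher in iPCKO were 66 genes, 0.655%, and at least 2-fold lower 44 genes, 0.437%. At 1.5-fold these shares were 3.24% (327 genes) and 2.33% (235 genes), and the counting interval lay above 0 for 14.6% and below 0 for 12.8% of genes. These percentages are the background against which the gene lists below are read.

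**Figure D1:**
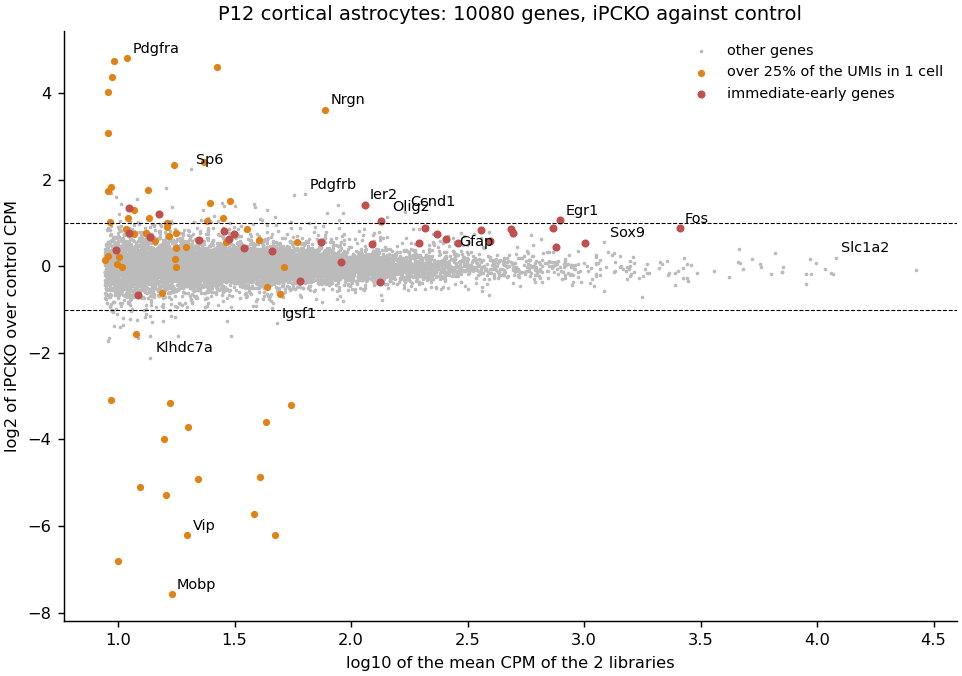
Each point is 1 of 10080 genes, with the log10 of its mean CPM over both libraries on the horizontal axis and the log2 ratio of iPCKO over control CPM on the vertical axis; dashed lines mark 2-fold. Orange genes, with over 25% of their UMIs in 1 cell, include genes at the far ends such as Mobp and Pdgfra, though not Sp6. The red immediate-early genes lie mostly above 0.

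Most genes at the far ends of this range rested on the few cells of other types, though not Sp6 and Ifi202b, given in the next paragraph. The 12 named genes with the highest ratios included Pdgfra (OPCs), Slc17a7, Pcp4, Cck, Nefl, Nrgn, Fxyd7, Snap25, Rgs4 and Brinp1 (all expressed by neurons), and the 12 lowest were oligodendrocyte genes such as Mobp, Cldn11, Mag, Mog, Mal and Mbp together with the interneuron genes Vip and Calb2. The oligodendrocyte gene Mobp had 194 UMIs in control, 97% of them in 1 cell, and 1 UMI in iPCKO. Nrgn, a protein of excitatory neurons, had 67 UMIs in control and 805 in iPCKO, and the log2 ratio of 3.62 went to 0.77 without the 11 cells. For Pdgfra, 4.33 UMIs in control and 119 in iPCKO gave a log2 ratio of 4.81, which turned to -2.08 without them. Pdgfra is among the markers that picked these cells, so its fall follows from the choice. The value of -2.08 rests on at most 4.33 UMIs in control and fewer in iPCKO. Over 25% of all UMIs lay in 1 cell for 20 of the 66 higher and 16 of the 44 lower genes.

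Without these 11 cells, 50 of 9946 genes were at least 2-fold higher (0.503%) and 29 at least 2-fold lower (0.292%), and 42 of the 66 and 24 of the 44 first genes were among them. The genes of this and the next paragraph were named for their values, Sp6, Ifi202b, C4b and Igsf1 by a rule on the size of the ratio and the others after their values were seen. Sp6, a zinc finger transcription factor, had 41 UMIs in control and 190 in iPCKO, a log2 ratio of 2.25 (1.76 to 2.77). The interferon-inducible Ifi202b had 41 and 141 UMIs, a log2 ratio of 1.82 (1.31 to 2.36). Lgals3bp, a secreted glycoprotein, had 274 and 720 UMIs at 1.43 (1.23 to 1.64), and the complement gene C4b had 86 and 230 UMIs at 1.47 (1.09 to 1.83). The cell with the most UMIs of a gene held 1.61 to 12.1% of them. Olig2, a transcription factor of the oligodendrocyte lineage and of a subset of astrocytes, had 499 and 1083 UMIs, a log2 ratio of 1.16 (1.0015 to 1.31), whereas its relative Olig1 stood at 125 and 130 CPM over all members. An Olig2 UMI was found in 19.7% of control and 38.9% of iPCKO astrocytes when each cell was thinned to 3000 UMIs, against 0.139% and 0.306% of unthinned endothelial cells, whose median depths were 9052 and 9397 UMIs.

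Among the lower genes without those cells were Igsf1, a membrane protein, with 392 UMIs in control and 154 in iPCKO, a log2 ratio of -1.31 (-1.59 to -1.04), and Klhdc7a, with 128 and 29 UMIs at -2.10 (-2.74 to -1.51). The netrin receptor Unc5c had 232 and 84 UMIs, a log2 ratio of -1.43 (-1.81 to -1.06), with 31.98 and 53.5 CPM in free RNA against 41.4 and 17.2 CPM in all members, and Abhd1 157 and 50 UMIs at -1.61 (-2.10 to -1.15). The cortical transcription factor Fezf2 had 155 and 44 UMIs at -1.78 (-2.30 to -1.29) without the 11 cells and a ratio of -0.74 with them.

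Among the gene lists, the immediate-early genes, which form the longest list, had the largest number of members past 1.5-fold. Fos, Fosb, Jun, Junb, Egr1 and Nr4a1 of this list are also among the reactive genes that the study named on these samples. Of 38 genes 33 had at least 100 UMIs. The median log2 ratio was 0.64, against 0.02 over all genes, 30 lay above 0, and 20 were at least 1.5-fold higher in iPCKO (3.24% of all genes). The counting interval lay above 0 for 28 of them (14.6% of all genes) and below 0 for 3 (12.8% of all genes). Without the 11 cells 30 of 33 lay above 0, 20 were 1.5-fold higher (2.92% of genes), 28 had intervals above 0 (14%) and 3 below (12.8%), and the median was 0.63. With each cell thinned to 3000 UMIs, the variance of Fos among cells was 14.9997 times its mean in control and 13.1 times in iPCKO. The medians over 4623 genes were 1.08 in both libraries. Counting intervals leave out this variation and are too narrow for genes such as Fos, Egr1 and Fosb. The counts of intervals above or below 0 in this list are therefore not directly comparable with the shares over all genes.

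Fos had the highest level of the list. This subunit of the factor AP-1, at chr12:85520658-85524047, had 1808 CPM in control and 3330 CPM in iPCKO, a log2 ratio of 0.88 (0.85 to 0.92). Its relative Fosb stood at 512 and 951 CPM, a log2 ratio of 0.89 (0.83 to 0.96). Their partners were less far apart, with 827 and 1193 CPM of Jun, 174 and 293 CPM of Junb and 637 and 871 CPM of Jund. The same direction held for the zinc finger factor Egr1, with 509 CPM in control against 1064 in iPCKO (log2 ratio 1.06, 0.9998 to 1.13), for its relatives Egr2 (9.04 and 20.96 CPM) and Egr3 (8.17 and 14.0 CPM), and for the nuclear receptor Nr4a1 (345 and 629 CPM). Ier2, a nuclear protein of the first wave of transcription, showed the largest ratio of the list, from 62.2 to 166 CPM at a log2 ratio of 1.42 (1.24 to 1.60), with 205 and 213 CPM in free RNA, that is, in barcodes of 10 to 200 UMIs.

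Other members of the list act on messenger RNA decay, kinases or growth. Zfp36, which binds AU-rich messenger RNAs and speeds their decay, had 88.1 and 181 CPM, a log2 ratio of 1.04 (0.89 to 1.20), against 761 and 772 CPM in free RNA, and Zfp36l1, of the same family, 367 and 625 CPM. The phosphatase Dusp6, which acts on ERK, stood at 261 and 464 CPM, and Dusp1, which acts on stress kinases, at 159 and 232 CPM. The antiproliferative Btg2 had 145 and 268 CPM and the factor Klf6 315 and 475 CPM. Lower in iPCKO were Sgk1, a kinase induced by glucocorticoids, with 14.9 and 9.42 CPM, the NF-kB inhibitor Nfkbia with 149 and 117 CPM, and the growth arrest gene Gadd45g with 67.6 and 53.3 CPM. The circadian gene Per1 had 86.9 and 93.4 CPM (log2 ratio 0.10, -0.07 to 0.28).

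**Figure D2:**
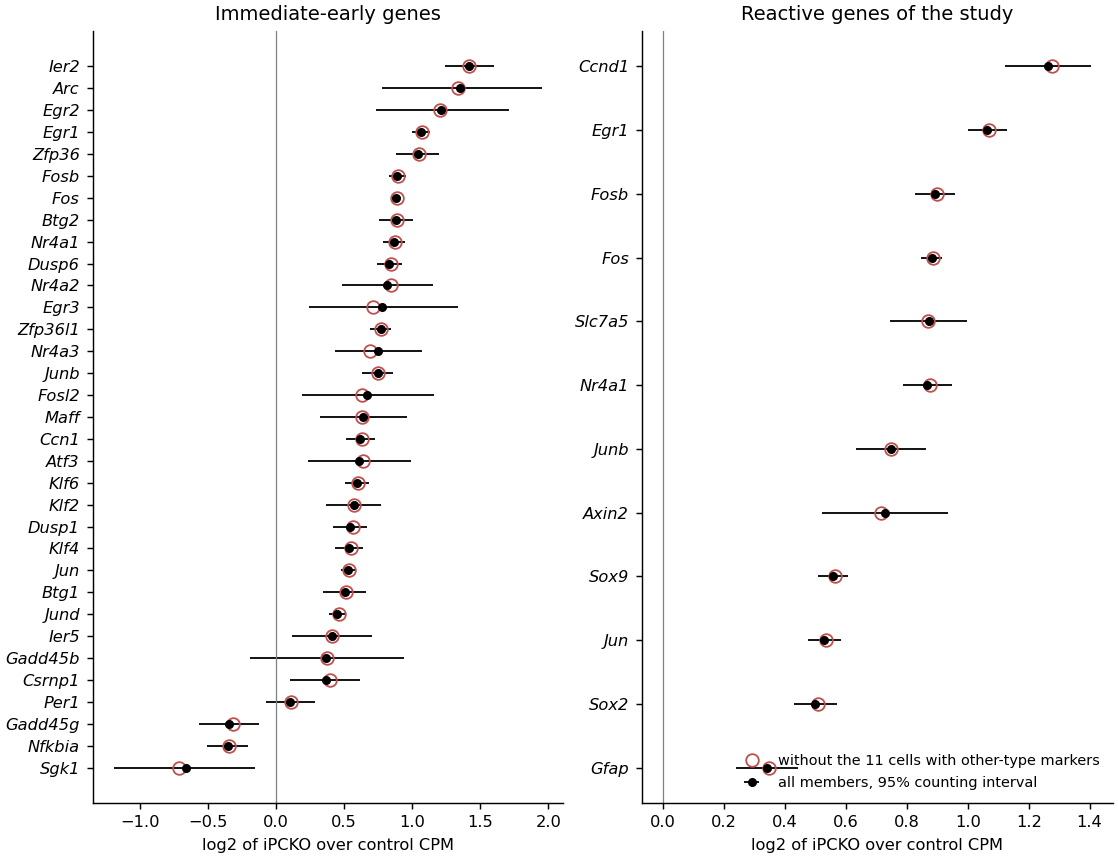
Log2 ratio of iPCKO over control CPM for the immediate-early genes with at least 100 UMIs (left) and for the reactive genes that the study names (right); black points are all members with exact 95% counting intervals and red rings are the values without the 11 cells with markers of other types. All but Gadd45g, Nfkbia and Sgk1 lie above 0 on the left, from Per1 at 0.10 to Ier2 at 1.42.

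The promoters of Fos, Junb and Nr4a1 are shown as examples that hold the motif marked below. In the RefSeq windows of 300 bases (250 before the start and 50 after it, build GRCm38.p6), capitals mark the core of the cyclic AMP response element, TGACG on either strand (CGTCA on the reverse). The window of Fos lies at chr12:85473640-85473939 on the plus strand, that of Junb at chr8:84978699-84978998 on the minus strand and that of Nr4a1 at chr15:101266596-101266895 on the plus strand, each written 5′ to 3′.
Fos promoter: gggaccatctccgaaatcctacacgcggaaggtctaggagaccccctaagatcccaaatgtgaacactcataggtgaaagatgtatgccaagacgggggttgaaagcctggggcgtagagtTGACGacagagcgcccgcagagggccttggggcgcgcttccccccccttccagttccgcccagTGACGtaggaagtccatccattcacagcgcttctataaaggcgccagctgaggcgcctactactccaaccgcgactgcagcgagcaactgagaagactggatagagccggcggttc
Junb promoter: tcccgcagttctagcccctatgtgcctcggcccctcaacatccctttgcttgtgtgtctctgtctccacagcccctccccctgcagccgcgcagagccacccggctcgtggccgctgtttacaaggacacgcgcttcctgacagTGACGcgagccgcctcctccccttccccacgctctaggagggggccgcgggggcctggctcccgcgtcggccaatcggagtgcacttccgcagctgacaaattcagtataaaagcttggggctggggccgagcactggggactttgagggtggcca
Nr4a1 promoter: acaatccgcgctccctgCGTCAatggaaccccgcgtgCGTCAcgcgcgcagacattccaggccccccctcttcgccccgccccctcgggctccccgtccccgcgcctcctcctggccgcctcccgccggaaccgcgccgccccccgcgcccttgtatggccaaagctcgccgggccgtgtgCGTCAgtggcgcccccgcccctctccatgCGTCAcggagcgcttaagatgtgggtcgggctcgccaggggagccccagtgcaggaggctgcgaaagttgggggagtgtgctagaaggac
The core occurred 2 times in the Fos window, 1 time in Junb and 4 times in Nr4a1. It was found in 17 of the 32 immediate-early promoters in the table, 53.1%, against 21.02% of 27025 promoters and 34.2% of the 7759 that belong to genes with at least 100 UMIs here. The windows of Jun, Jund, Egr2, Dusp6, Klf6, Zfp36 and Zfp36l1, which were also higher in iPCKO, did not hold it. A part of the core in the shared difference was not tested. The serum response motif, the CArG box, was found in 1 of the 32 windows, that of Zfp36, and in 1.57% of all. It was searched in its strict form and within these windows alone, so elements farther upstream were not read. Of the 38 genes of the list 32 have a window, and Egr1 and Ier2 are not among them. The core holds a CpG, and a match is a description of the letters in the window.

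Per cell, the list was spread widely and shifted as a whole. Immediate-early genes took 0.246% of the UMIs of the median control astrocyte and 0.652% of the median iPCKO astrocyte. The 10th percentile was 0.0983% and 0.146%, the 90th 2.10% and 3.39%. Of the iPCKO cells 75.8% lay above the control median. The mitochondrial share of a cell went with this measure: over cells the Spearman correlation was -0.32 in control and -0.40 in iPCKO, as a description without a test. Among cells with at most 10% mitochondrial UMIs the medians were 0.396% (263 control cells) and 0.953% (343 iPCKO cells), and among the others 0.193% (274 cells) and 0.386% (181 cells). The iPCKO median was above the control one on either side of 10%, while the median log2 ratio of the list was 0.42 in the cells of at most 10%. Within the cells of at most 10% the correlation was still -0.30 in control and -0.35 in iPCKO. The part of the mitochondrial share in the difference between the libraries was not tested.

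**Figure D3:**
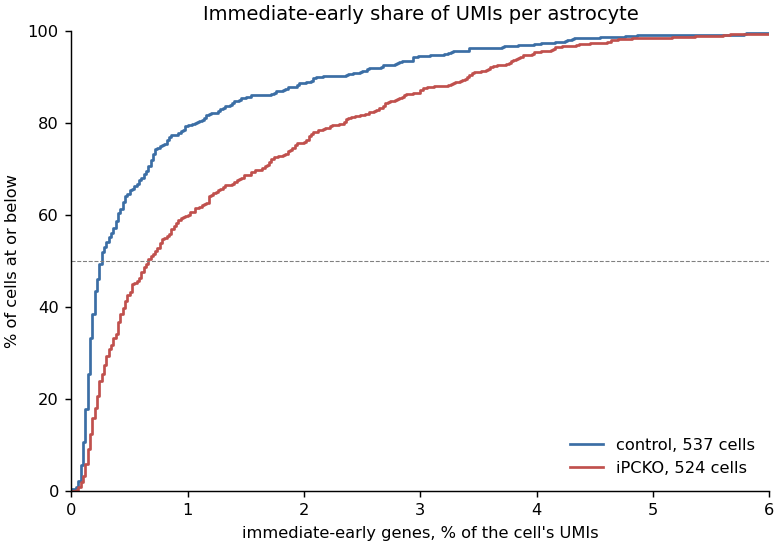
Cumulative share of cells (vertical axis, %) at or below a given immediate-early share of the cell's UMIs (horizontal axis, %) in 537 control (blue) and 524 iPCKO (red) astrocytes. The iPCKO curve lies to the right, crossing 50% of cells at 0.652% against 0.246%.

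After thinning of each cell to 3000 UMIs, which left out 19 control and 23 iPCKO cells, a Fos UMI was present in 57.3% (52.9 to 61.6%) of control and 81.6% (78.0 to 84.9%) of iPCKO cells. For Egr1 the shares were 26.8% (23.1 to 30.9%) and 53.7% (49.2 to 58.1%). Without thinning Fos was found in 70.8 and 91.2% and Egr1 in 37.6 and 64.3% of cells. Free RNA held these transcripts too, at nearly the same level in both libraries: in barcodes of 10 to 200 UMIs Fos had 1220 CPM in control and 1234 in iPCKO, and Egr1 607 and 591 CPM. In control astrocytes Egr1, at 509 CPM, stood below that level. Of the 33 immediate-early genes, 30 had a higher level in free RNA than in control astrocytes (49.9% of all genes), and 23 had one above the astrocytes of both libraries, as did 44.2% of all genes. The part of free RNA in the astrocyte values was not tested. Of the endothelial cells, which were not thinned, 92.9 and 92.7% had a Fos UMI and 83.8 and 85.1% an Egr1 UMI.

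Variation among cells was ranked over genes with unique symbols and thinned means of at least 0.1 UMI in both libraries. Predicted, ribosomal and mitochondrial genes were left out. Fos had the highest ratio of variance to mean among the cells of a library, by the lower of its values in both. This ratio also depends on the level of a gene. With thinned counts, its variance was 14.9997 times its mean in control and 13.1 times in iPCKO, that of Egr1 10.4 and 7.33 times and that of Fosb 7.66 and 7.12 times, against medians of 1.08 in both libraries over 4623 genes. The tenth of cells with the most Fos held 55.2% of the Fos UMIs in control and 36.2% in iPCKO. By that share Egr1 (74.7 and 44.4%), Fosb (70.4 and 47.2%) and Nr4a1 (73.0 and 52.5%) were more concentrated than Fos. Ahead of Egr1 by the ratio of variance to mean were Nnat, an imprinted proteolipid gene (11.5 and 11.6), and the insulin-like growth factor binding protein Igfbp5 (8.79 and 12.6). So was the protease inhibitor Cst3 (8.21 and 8.197), whose thinned means of 33.9 and 32.6 UMIs were above the 5.40 and 10.2 of Fos. The nuclear RNA Malat1 (6.31 and 7.93) followed Fosb. Within a library Fos went with Fosb (Spearman 0.69 over 518 control and 0.80 over 501 iPCKO cells), with Egr1 (0.67 and 0.74) and with Jun (0.59 and 0.72). It did so less with Sox9 (0.41 and 0.46) and hardly with Gfap (0.05 and -0.07). These points share a library and are thinned to the same depth.

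The 12 reactive genes that the study names were chosen by it on these samples, so their direction is not independent evidence. All 12 were higher in iPCKO, with a median log2 ratio of 0.81 against 0.02 over all genes, 8 of them at least 1.5-fold (3.24% of all genes), and 6 are immediate-early genes described above. Gfap, at chr11:102778159-102791738, had 243 CPM in control and 307 CPM in iPCKO, a log2 ratio of 0.34 (0.24 to 0.44), the smallest of the 12. A Gfap UMI was found in 35.3% (31.2 to 39.6%) of thinned control and 42.5% (38.1 to 47.0%) of iPCKO cells, against 1.25 and 0.535% of endothelial cells that were not thinned. The tenth of cells with the most Gfap held 56.5 and 51.1% of its UMIs. The cell cycle gene Ccnd1, which also responds to Wnt and growth factor signals, stood at 100.4 and 241 CPM, a log2 ratio of 1.26 (1.12 to 1.41), the largest of the 12. Free RNA held 181 and 199 CPM of Ccnd1. For 8 of the 12 genes free RNA was above the control astrocytes (49.9% of all genes), and for 3 above those of both libraries (44.2%). The amino acid transporter Slc7a5 had 139 and 254 CPM and the Wnt target Axin2 54.4 and 90.1 CPM. Of the progenitor and glial transcription factors, Sox9 had 989 and 1454 CPM, a log2 ratio of 0.56 (0.51 to 0.61), and Sox2 499 and 706 CPM, a log2 ratio of 0.50 (0.43 to 0.57). A thinned Sox9 UMI was present in 86.1% of control and 96.0% of iPCKO cells and a Sox2 UMI in 71.4 and 85.2%. Without thinning these shares were 97.8 and 97.9% for Sox9 and 93.9 and 96.6% for Sox2. Among endothelial cells that were not thinned, 45.7 and 33.9% had a Sox9 UMI and 0.554 and 0.840% a Sox2 UMI.

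The canonical reactive lists were thinly measured. Of 13 pan-reactive genes, shared by several injuries, 5 had at least 100 UMIs, with a median log2 ratio of 0.34. The oncostatin M receptor Osmr had 16.5 and 33.4 CPM, a log2 ratio of 1.02 (0.65 to 1.39), although free RNA held 100.2 and 118 CPM of it. The protease inhibitor Serpina3n had 20.5 and 33.8 CPM at 0.72 (0.38 to 1.06), with 3.40 and 2.84 CPM in free RNA. Cd44, a hyaluronan receptor, had 40.0 and 37.8 CPM, and the filament protein Vim was lower, at 112 and 88.1 CPM (log2 ratio -0.34, -0.51 to -0.17). Of the 13 genes each of the A1 and A2 lists, which were defined after inflammation and after stroke, 2 passed the minimum. Amigo2 of the A1 list had 34.4 and 52.2 CPM and H2-D1 31.2 and 31.5 CPM, and of the A2 list the transcription factor Stat3 had 167 and 283 CPM, a log2 ratio of 0.76 (0.64 to 0.87), and Tm4sf1 10.1 and 13.9 CPM. Free RNA held 428 and 476 CPM of H2-D1, 330.2 and 329 CPM of Tm4sf1, 717 and 648 CPM of Stat3 and 748 and 761 CPM of Vim, above the astrocytes of both libraries.

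Other stress and immune lists had medians between -0.12 and 0.26. The heat shock list had a median log2 ratio of 0.01 over 14 genes, with the co-chaperone Dnajb1 higher (25.2 and 62.0 CPM, log2 ratio 1.30, 1.02 to 1.59) and Hspa1b lower (11.5 and 6.396 CPM, -0.84, -1.47 to -0.24). The list of unfolded protein and amino acid responses had a median of 0.02 over 14 genes, of which Nupr1 (23.1 and 44.2 CPM, log2 ratio 0.94, 0.63 to 1.25) and Slc7a5 were at least 1.5-fold higher (3.24% of all genes). Ddit3, whose symbol belongs to more than 1 identifier and which was left out of the list for that, had 32.3 and 62.9 CPM. Medians were 0.03 over 11 hypoxia-induced genes and -0.12 over 13 glucocorticoid and metallothionein genes. Of the latter 3 were at least 1.5-fold lower (2.33% of all genes), the cell cycle inhibitor Cdkn1a at 26.6 and 14.7 CPM, Zbtb16 at 18.3 and 11.5 CPM and Sgk1. Interferon-stimulated and antigen presentation genes had 7 of 20 members past the minimum and a median of 0.26, with the interferon signalling factors Irf9 (16.7 and 24.96 CPM) and Stat2 (27.5 and 37.4 CPM) highest in ratio. Free RNA held a higher level than the astrocytes of both libraries for all 7 of these genes and for 8 of the 14 heat shock genes (44.2% of all genes), with 77.3 and 63.4 CPM of Irf9, 72.4 and 76.3 CPM of Stat2 and, above the control astrocytes alone, 53.2 and 56.1 CPM of Dnajb1. Of 20 cytokine, chemokine and complement genes 5 passed it, with a median of -0.01, C4b at the upper end and the alarmin Il33 at 50.9 and 33.8 CPM, a log2 ratio of -0.59 (-0.86 to -0.32), at the lower.

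**Figure D4:**
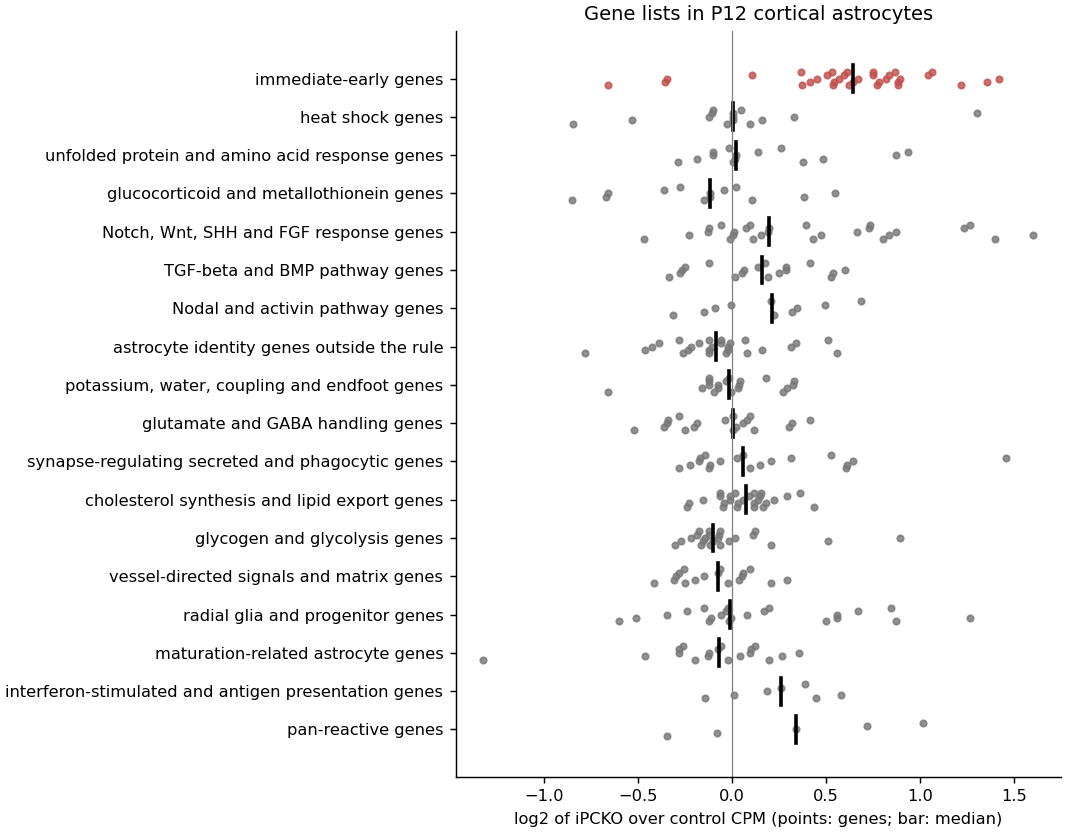
Log2 ratio of iPCKO over control CPM of every list member with at least 100 UMIs (points, 1 gene each) and the list median (black bars) for 18 gene lists, some of which share genes. The immediate-early median lies at 0.64, while the identity, endfoot, glutamate, cholesterol and glycogen lists have medians between -0.10 and 0.07.

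Lists of astrocyte identity and function had medians near that of all genes. Of 26 identity genes outside the rule, 7 were above 0, none was 1.5-fold higher and 1 was 1.5-fold lower (2.33% of all genes), with a median of -0.08. The counting interval lay below 0 for 16 of the 26 (12.8% of all genes) and above 0 for 7 (14.6%). These 26 genes summed to 76655 and 74853 CPM, and high levels make intervals narrow. The shares over all genes are not matched for level, here and for the other lists. The gene past 1.5-fold was the calcium-binding S100b, at 172 and 100.2 CPM, a log2 ratio of -0.78 (-0.93 to -0.63). The neurotensin receptor Ntsr2 followed with 1280 and 928 CPM at -0.46 (-0.52 to -0.41). Of the 8 rule genes, which are a description only, Chrdl1, a BMP antagonist that matures synapses, was farthest apart (300.3 and 456 CPM) and Aqp4 had 1187 and 977 CPM. Potassium, water, coupling and endfoot genes had a median of -0.01 over 19 genes, with the lipid enzyme Lcat lowest (164 and 104 CPM) and the potassium channel Kcnj16 highest (167 and 210 CPM). Glutamate and GABA handling genes had a median of 0.01, with the glycine transporter Slc6a9 at 245 and 171 CPM and the glutamate receptor subunit Gria2 at 1010 and 786 CPM as the lowest ratios.

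Cholesterol synthesis and lipid export genes had a median of 0.07 over 26 genes. None was past 1.5-fold (3.24% of all genes higher and 2.33% lower), and 12 counting intervals lay above 0 (14.6%) and 4 below (12.8%), with the sterol sensor Insig1 highest at 437 and 591 CPM. Glycogen and glycolysis genes had a median of -0.10 over 23. The phosphoglucomutase Pgm2 was the 1 gene past 1.5-fold, against 3.24% of all genes higher and 2.33% lower (15.3 and 28.4 CPM, log2 ratio 0.89, 0.51 to 1.29), with 49.8 and 70.6 CPM in free RNA. It was followed by the glycogen-targeting phosphatase subunit Ppp1r3c at 187 and 266 CPM (log2 ratio 0.51, 0.40 to 0.63), while the muscle-type glycogen phosphorylase Pygm, also the form of astrocytes, stood at 90.2 and 73.0 CPM. Synapse-regulating and phagocytic genes had a median of 0.06 over 19, of which 4 were at least 1.5-fold higher (3.24% of all genes). They were C4b, described above, the phagocytic bridging protein Pros1 (15.99 and 24.3 CPM), the thrombospondin Thbs4 (12.3 and 18.8 CPM) and Sparc. The matricellular Sparc had 509 and 794 CPM, a log2 ratio of 0.64 (0.57 to 0.71), while free RNA held 2695 and 2641 CPM of it, and its relative Sparcl1 had 5871 and 7287 CPM. Vessel-directed signals and matrix genes had a median of -0.08 over 17, with Wnt7a at 83.4 and 62.5 CPM, a log2 ratio of -0.42 (-0.62 to -0.21), as the lowest.

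Targets of developmental signals stood between these lists and the immediate-early genes. Of 27 Notch, Wnt, SHH and FGF response genes 21 were above 0, 10 were at least 1.5-fold higher (3.24% of all genes) and none was 1.5-fold lower, with a median of 0.20. The Notch target Heyl had 17.6 and 46.2 CPM, a log2 ratio of 1.40 (1.06 to 1.74), with 46.4 and 63.98 CPM in free RNA, above both. Hes5, which keeps progenitors undifferentiated, had 131 and 239 CPM at 0.87 (0.74 to 1.0003), with 19.2 and 25.2 CPM in free RNA. Notum, an enzyme that inactivates Wnt proteins, had 28 and 83 UMIs, at 4.87 and 14.7 CPM below the 69.1 and 66.5 CPM of free RNA. Lef1, a Wnt effector, had 40.6 and 54.7 CPM, while the SHH targets Gli1 (16.7 and 12.1 CPM) and Hhip (15.4 and 13.1 CPM) had the lowest ratios. Ccnd1, Axin2 and Dusp6 of this list are described above and are also members of other lists.

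Radial glia and progenitor genes had a median of -0.01 over 22 genes, of which 4 were at least 1.5-fold higher (3.24% of all genes) and 1 lower (2.33%), with 8 counting intervals above 0 (14.6%) and 8 below (12.8%). The higher ones were Hes5, Ccnd1, the transcription factor Sox4 (103 and 163 CPM) and the filament protein Nes (6.43 and 11.5 CPM). The matrix glycoprotein Tnc was lower by less than 1.5-fold (169 and 118 CPM, log2 ratio -0.51, -0.65 to -0.36). Maturation-related genes had a median of -0.07 over 18 genes, with Igsf1 and Ntsr2 lowest and Luzp2 highest at 827 and 1060 CPM. Of their counting intervals 4 lay above 0 (14.6%) and 10 below (12.8%). S phase and mitosis genes outside the rule had 6 of 21 members past the minimum and a median of 0.05, with the replication clamp Pcna at 65.0 and 64.6 CPM. The exclusion genes of the rule include Mki67 and Top2a, so cycling cells were largely left out beforehand and this list describes the selection. Free RNA held a higher level than the astrocytes of both libraries for all 6 of these genes (44.2% of all genes). Telencephalic astrocyte genes, with Lhx2 at 300.1 and 281 CPM and Emx2 at 117 and 153 CPM, had a median of 0.28 over 7. Non-telencephalic and white-matter ones had a median of -0.08 over 11. Of these 11, 2 were at least 1.5-fold higher (3.24% of all genes) and 1 lower (2.33%), Zic1 at 17.0 and 9.24 CPM. Summed over all members, the telencephalic list had 2551 and 2469 CPM and the other list 1833 and 2155 CPM. Most of the rise in the latter sum lay in 1 gene, Sparc (log2 ratio 0.64), whose level in free RNA is given above.

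The receptors and effectors that a Nodal or activin signal would use were sparse. Of 24 genes 10 had at least 100 UMIs, with a median log2 ratio of 0.21, and 1 was at least 1.5-fold higher (3.24% of all genes). For 7 of the 10 free RNA held a higher level than the astrocytes of both libraries (44.2% of all genes), among them Acvr2a (34.5 and 42.6 CPM in free RNA), Smad2 (57.2 and 59.3 CPM), Smad3 (59.997 and 63.04 CPM) and Smad4 (102.5 and 144 CPM). The type I receptor Acvr1b had 13.0 and 10.5 CPM, and Acvr1c 4.34 and 5.06 CPM. Of the type II receptors, Acvr2a had 22.9 and 26.5 CPM and Acvr2b 7.99 and 9.06 CPM. The co-receptor Tdgf1 had 2 and 6 UMIs, and Cfc1 and the nuclear partner Foxh1 had none in either library. Of the intracellular effectors, Smad2 had 29.2 and 36.5 CPM, Smad3 21.5 and 34.6 CPM (log2 ratio 0.68, 0.35 to 1.02), and Smad4 76.9 and 76.7 CPM. The targets Lefty1 and Lefty2 had at most 5 UMIs in either library, and the broader TGF-beta targets Skil (26.9 and 31.4 CPM), Pmepa1 (49.9 and 46.9 CPM) and Smad7 (15.8 and 20.1 CPM) had intervals that held 0. The ligand Gdf1 had 104 and 93.7 CPM. The TGF-beta and BMP list had a median of 0.16 over 18 genes, with Bmp7 at 59.7 and 86.7 CPM and the BMP target Id3 at 460 and 563 CPM.

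The immediate-early and reactive lists were read in other cells of both libraries. The comparison cells were 722 control and 1309 iPCKO barcodes by endothelial markers and 825 and 1249 by microglial markers. The immediate-early median log2 ratio was 0.02 over 35 genes in endothelial cells, with none 1.5-fold higher (4.65% of genes there) and 1, Gadd45g, 1.5-fold lower (2.37%), while 13 counting intervals lay above 0 (14.9%) and 12 below (16.9%). In microglia it was -0.12 over 32 genes, with 4 1.5-fold higher (5.84%) and 5 lower (5.7%), 9 intervals above 0 (17.8%) and 16 below (23%). In the 48 and 42 mural barcodes it was 0.30 over 12 genes, of which 11 were above 0, 3 were at least 1.5-fold higher (4.26%) and 5 had counting intervals above 0 (9.81%). Fos had 2571 CPM in control and 2418 CPM in iPCKO endothelial cells, both above the control astrocytes, and 334 and 390 CPM in microglia. The 12 reactive genes of the study had a median of -0.08 over 10 genes in endothelial cells, 0.19 over 8 in microglia and 0.32 over 6 in mural barcodes, against 0.81 in astrocytes. The pan-reactive median was 0.52 over 7 genes in endothelial cells and 0.49 over 5 in microglia, against 0.34 over 5 in astrocytes. With 1 library a genotype, a difference of the ratio between cell types has no test.

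**Figure D5:**
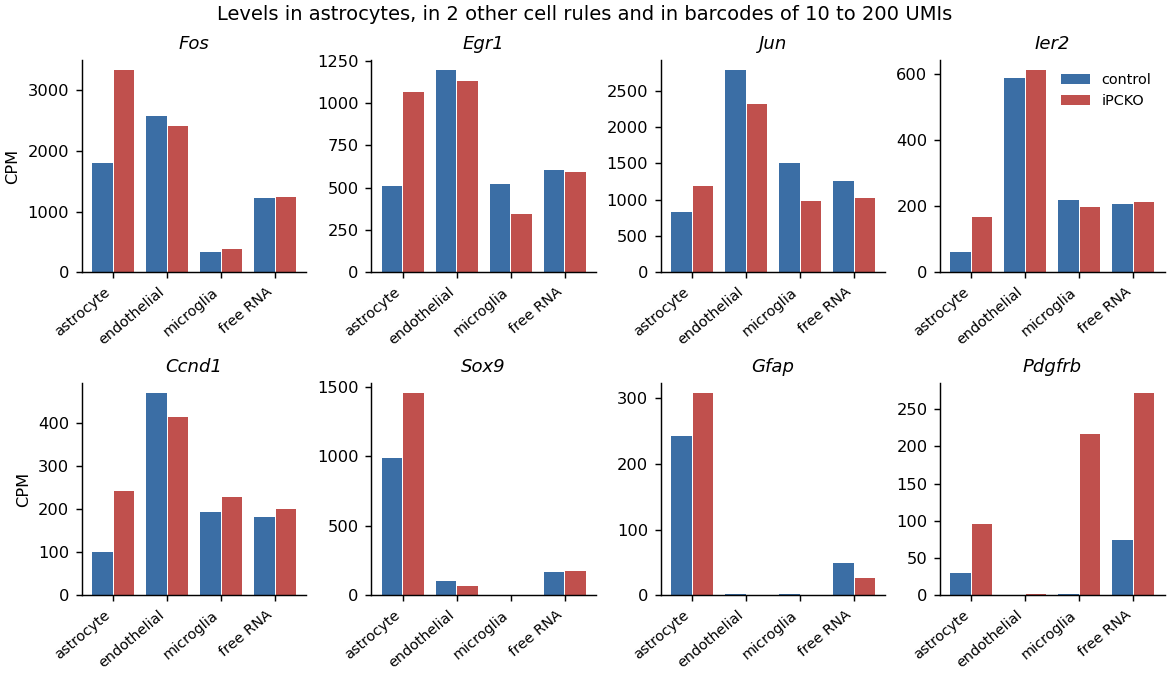
CPM (vertical axes, each from 0) of 8 genes in control (blue) and iPCKO (red), in astrocytes, in cells chosen by endothelial or microglial markers, and in barcodes of 10 to 200 UMIs (free RNA); each bar is 1 library, with no error bar. Fos is at 1808 and 3330 CPM in astrocytes and at 2571 and 2418 CPM in endothelial cells, and Pdgfrb is higher in iPCKO astrocytes, microglia and free RNA.

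Pdgfrb, the pericyte receptor whose regulatory region drives the transgene, was among the genes with the largest ratios. It had 174 UMIs (30.2 CPM) in control and 540 UMIs (95.9 CPM) in iPCKO astrocytes, a log2 ratio of 1.67 (1.42 to 1.92), with no more than 5 UMIs in any cell. A UMI was found in 8.69% of thinned control and 26.3% of iPCKO cells, against 0.277 and 1.68% of endothelial cells that were not thinned. Of the other mural genes with at least 100 UMIs, Rgs5 stood at 30.9 and 16.2 CPM, Atp13a5 at 18.7 and 12.6 CPM and Notch3 at 106 and 108 CPM. Free RNA held 74.7 and 271 CPM of Pdgfrb. Microglia had 1.74 and 217 CPM, endothelial cells 0.260 and 1.71 CPM and the mural barcodes 823 and 1905 CPM. The part of free RNA and of the transgene in the astrocyte value was not tested.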

How the data were processed

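According to their methods and labels, the authors aligned reads with STARsolo (STAR 2.7.10a) to GRCm39 with Gencode annotation and shared multi-mapping reads between genes, so the deposited matrices hold estimated counts of UMIs without normalization or a cell filter. Members and gene lists were chosen with earlier results of these data known. Estimated counts were summed over member cells per library and divided by their total (CPM). Ratios have conditional exact Clopper-Pearson intervals and levels exact Poisson ones, from rounded counts. A gene at 0 was set to 3 counts in a ratio. Genes needed 100 UMIs in both libraries together. Shares of cells and variances used cells thinned to 3000 UMIs (seed 1, numpy 2.4.6). No doublet caller was applied in the main results. The named genes are the 12 with the largest and the 12 with the smallest ratio (unique symbols, without predicted, ribosomal and mitochondrial genes), the 2 largest and 2 smallest of each list, all of the study, immediate-early and Nodal lists, the 15 highest in control and the 20 most variable. The ratio step was tested on simulated data. Of 56884 gene identifiers 56323 matched the Gencode annotation used for coordinates. Captured 3′ ends were not divided by gene length. The lung libraries were not used here, and a few genes that the naming rule covers are not reported here.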

Additional observations from a re-analysis of the deposited data

How the results depend on the processing

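No paired analysis was possible because each genotype has 1 library, so leaving out a library was not possible either. Members numbered 263 in control and 343 in iPCKO with at most 10% mitochondrial UMIs, 299 and 318 without cells of more than 2 UMIs over neuron, oligodendrocyte and OPC markers (a limit that the low Cnp of most astrocytes reaches), and 334 in iPCKO with 0 exclusion UMIs. Genes at least 2-fold higher numbered 38 under that marker limit, 328 at a minimum of 20 UMIs, 1697 with no minimum above 1 UMI in each library and 327 past 1.5-fold. Genes 2-fold lower numbered 28 with at least 6 markers, 14 under the marker limit, 29 without the 11 cells (an alternative chosen after seeing the data, as was leaving out the cell with most UMIs of each gene), 359 and 1533 at the lower minimums and 235 past 1.5-fold. With at most 10% mitochondrial UMIs the median log2 ratios of the study's reactive genes and of the immediate-early genes were 0.59 and 0.42, and under the marker limit that of Notch, Wnt, SHH and FGF responses was 0.35. The cause of these shifts was not tested.

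Medians of marker lists of other cells moved most. The oligodendrocyte median of -5.08 became -6.20 at the 10% limit, -0.44 with at least 6 markers, -0.048 under the marker limit, -0.47 without the 11 cells, -3.21 with cells of equal weight and -0.51 without each top cell. The neuron median of 1.29 was 0.17 with at least 6 markers. The OPC median of 1.15 was 0.99 at 10%, 0.62 with 6 markers, 0.68 with 0 exclusion UMIs, 0.63 under the marker limit and 0.61 without the 11 cells. The endothelial median was -0.40 with 0 exclusion UMIs and 0.59 under the marker limit. The fibroblast median of 2.13 over 2 genes was 5.43 at 10% and turned to -0.51 with 6 markers, -0.51 without the 11 cells and -0.54 at both lower minimums. The ependymal and choroid median was 0.98 with cells of equal weight.

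Of 2160 values of 198 named genes 97 had the other sign. Among them were Tm4sf1 (0.46, and -0.96 with at least 6 markers), Hhip (-0.23, and 0.13 with cells of equal weight) and H2-D1 (0.013, and -0.35 with 0 exclusion UMIs), whose intervals held 0. The 28 values that turned from a ratio past 1.5-fold mostly belonged to markers of other cells. With at least 6 markers the log2 ratios were 0.49 for Mal, -1.14 for Snap25, -2.28 for Brinp1, -2.07 for Pdgfra, -0.47 for Fxyd7, -0.19 for Nrgn, -1.96 for Cck, -0.96 for Nefl, -0.56 for Gap43, -0.018 for Pcp4 and 0.63 for Mog. Without the 11 cells they were 0.49 for Mal, -0.90 for Snap25, -2.28 for Brinp1, -2.08 for Pdgfra, -0.28 for Fxyd7, -1.96 for Cck, -0.96 for Nefl, -0.55 for Gap43, -0.23 for Pcp4 and 0.62 for Mog. Markers that picked the 11 cells fall by that choice, and a value such as that of Pdgfra rests on a few UMIs. Under the marker limit they were 1.29 for Mal, -2.13 for Brinp1, -0.13 for Fxyd7 and -0.47 for Gap43. Without each top cell they were 0.27 for Mal and 0.25 for Mog, and at the 10% limit -0.012 for Nr4a3. Of the genes the report leads with, Fos ranged from 0.68 to 0.90, Egr1 from 0.68 to 1.07, Gfap from 0.26 to 0.38, Sox9 from 0.45 to 0.64 and Ccnd1 from 1.12 to 1.31 over 11 alternatives.

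Without thinning, the share of cells with a UMI was higher in iPCKO by 4.01 percentage points for Jun, 2.71 for Sox2 and 0.14 for Sox9, against 13.0, 13.8 and 9.91 with it. Median-of-ratios scaling moved all genes by -0.02 on the log2 scale, and Scrublet (scanpy 1.11.5) called 1 control and 6 iPCKO members. Genes near 100 UMIs have wide intervals, and differences within them were not detectable at this depth.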

Other observations

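Without the 11 cells with markers of other types, further genes at least 2-fold apart, chosen after their values were seen, included enzymes and secreted proteins. Cdo1, the cysteine dioxygenase, had 308 UMIs in control and 711 in iPCKO astrocytes, a log2 ratio of 1.24 (1.05 to 1.44). The protease inhibitor A2m had 84 and 172 UMIs at 1.06 (0.69 to 1.47), the nuclear RNA Neat1 328 and 674 UMIs at 1.07 (0.88 to 1.27), and the phospholyase Etnppl 24 and 77 UMIs at 1.72 (1.04 to 2.45). The pentraxin Nptx2 had 123 and 304 UMIs at 1.34 (1.04 to 1.66). Lower in iPCKO were Elavl3, an RNA-binding protein of neurons (179 and 58 UMIs, -1.57, -2.04 to -1.15), the calcium channel subunit Cacna1a (120 and 38 UMIs, -1.60, -2.19 to -1.08) and the adenylate cyclase Adcy8 (86 and 29 UMIs, -1.52, -2.19 to -0.91). Free RNA held more than the members of both libraries for Neat1 (107.5 and 140 CPM, against 57.1 and 119.7 CPM in all members), Elavl3 (48.6 and 75.8 against 46.0 and 15.2 CPM), Cacna1a (82.1 and 125 against 22.0 and 9.15 CPM) and Adcy8 (19.2 and 12.5 against 15.03 and 5.86 CPM). For Cdo1 it held 41.3 and 43.5 CPM, against 54.7 and 129 CPM in all members.

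A UMI of Xist was found in 97.4% of control and 97.3% of iPCKO astrocytes without thinning and in 93.8 and 95.2% of those thinned to 3000 UMIs, at 1309 and 1395 CPM. The Y-linked Eif2s3y had 0 UMIs in both libraries, Uty 7 and 3 UMIs, and Ddx3y 15.8 and 15.1 CPM, against 17.0 and 18.6 CPM in free RNA.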
